A study of Mus musculus with 335 samples.

Results

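C1qb, Csf1r, Mrc1, Apoe, Fcer1g, Laptm5 and Coro1a are 7 genes of macrophages and other white blood cells. They were chosen by name for their levels in the 4 sorted pools and in single cells, with earlier results of these data known, and they make up 7 of the 13448 entries with a gene symbol in the deposited count table. The study sorted single cells of E11.5 embryos of wild-type mice and read their RNA by Smart-seq2, a plate method that covers whole transcripts and carries no molecular identifiers. The cells came from the aorta-gonad-mesonephros region, the tissue around the embryonic aorta in which blood stem cells arise. Each of the 335 cells is 1 library, marked by 1 of 12 i7 and 1 of 8 i5 indices.

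The HSC group held 65 cells with EPCR and CD45 on the surface. The Dorsal group held 93 Ngfr+Pdgfrb- cells taken dorsal of the aorta, and the Ventral group 89 Ngfr+Pdgfrb- cells taken ventral of it. The Mesenchymal group held 88 ventral Pdgfrb+Ngfr- cells. No group carried a transgene or treatment in the labels, and all 4 shared the genotype and the age. The labels name no embryo or litter, and each group was 1 sequencing pool. Each group therefore counts as 1 sample here, no test between groups was possible, and the group cannot be told apart from its pool.

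The pools summed to between 68560754 and 110598792 estimated counts, with a median of 505916 to 1033890 counts per cell. One Ventral cell, number 41, held 18.5% of the counts of its pool, and cells are numbered within a pool only to name them. Levels are given as CPM, counts per 1000000 counts of the pool or cell. The genes behind the sorting gates followed the labels: Ngfr stood at 281 CPM in Dorsal, 90.9 in Ventral, 7.32 in Mesenchymal and 0.19 in HSC. Pdgfrb stood at 127 CPM in Mesenchymal and at most 2.05 in the other pools, and Ptprc, which encodes CD45, at 279 CPM in HSC. Of the 96 index pairs, 55 were used in all 4 pools, 33 in 3 and 8 in 2, so wells of different pools share pairs.

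Macrophages are phagocytes of the tissue, and in the mouse embryo they first come from the yolk sac, before blood stem cells form. C1qb encodes 1 chain of C1q, the recognition protein that starts the classical complement cascade, together with C1qa and C1qc. Csf1r is the receptor for the growth factors CSF1 and IL-34, on which most tissue macrophages depend. Mrc1 is the mannose receptor CD206, an uptake receptor of tissue macrophages. Fcer1g is the common gamma chain that carries the signal of several Fc receptors, and Tyrobp (DAP12) is a related adaptor. Apoe is a lipid carrier that macrophages make, as many other cells do. Laptm5 is a lysosomal membrane protein of blood cells, and Coro1a is an actin-binding protein of leukocytes. PU.1, the product of Spi1, is a transcription factor of myeloid cells and of blood stem cells.

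In the GENCODE annotation of GRCm38, C1qb spans chr4:136880129-136886187 on the minus strand and Laptm5 chr4:130913125-130936141 on the plus strand. Mrc1 spans chr2:14229392-14332057 on the plus strand, and Fcer1g chr1:171229572-171234365 on the minus strand. Apoe spans chr7:19696109-19699188 and Coro1a chr7:126699773-126707787, both on the minus strand. RefSeq promoter windows on GRCm38.p6 matched 6 of the 7 genes, all but Csf1r.

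The stretches from 150 to 23 bases before the RefSeq start are printed for C1qb, Mrc1 and Fcer1g, since counts of these genes were high in the same cells. Capitals mark GAGGAA or its reverse complement TTCCTC, the purine-rich core that PU.1 binds. They lie at chr4:136886223-136886350 (minus strand), chr2:14229264-14229391 (plus strand) and chr1:171234372-171234499 (minus strand).
C1qb: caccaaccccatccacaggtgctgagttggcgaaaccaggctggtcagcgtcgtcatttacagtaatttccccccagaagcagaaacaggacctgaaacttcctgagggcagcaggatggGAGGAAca
Mrc1: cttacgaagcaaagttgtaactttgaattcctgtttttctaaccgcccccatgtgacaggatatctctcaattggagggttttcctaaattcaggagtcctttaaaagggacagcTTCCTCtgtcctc
Fcer1g: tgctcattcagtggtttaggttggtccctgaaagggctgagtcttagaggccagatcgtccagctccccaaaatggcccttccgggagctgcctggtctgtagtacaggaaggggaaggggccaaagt
GAGGAA was searched on both strands in the 250 bases before each start and was found in 23.3% of 32851 RefSeq promoter windows of that length. It occurred before C1qb (30 bases before the start), Laptm5 (38 bases before it) and Mrc1 (3 matches, the nearest 35 bases before it), and before some of the Apoe starts. It was not in the windows of Fcer1g or Coro1a. TGANTCA, the AP-1 motif, in which GAGGAA cannot lie, was in 6.75% of the windows and in those of none of the 6 genes. A match describes the letters in the window and nothing else.

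C1qb, the complement gene, was high in a few cells of the 2 Ngfr+ pools and close to absent elsewhere. In the Dorsal pool it stood at 263 CPM (95% Poisson limits 260 to 266), with a cell median of 2.66 and a highest cell of 3800 CPM. In the Ventral pool it stood at 175 CPM (172 to 177), with a cell median of 1.96 and a highest cell of 3491 CPM. The limits cover counting error only, and reads without molecular identifiers are not independent molecules. In the HSC pool 0.97 counts were found in 1 of 65 cells. In the Mesenchymal pool all 88 cells had 0 counts, which allows, for counting error and by a floor of 3 counts or 3 cells, at most 0.0438 CPM over the pool and a share of up to 3.41% of cells with a count. The exact upper limit of that share is 4.11%.

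Mrc1, the mannose receptor, had a like pattern. In Dorsal it came to 154 CPM (152 to 157), and the Ventral pool had 146 CPM (143 to 148). The cell medians were 1.21 and 0.691 CPM, and the highest cells stood at 3012 and 3693 CPM. In HSC all of its 39.2 counts lay in 1 cell, number 60, at 35.8 CPM. All 88 Mesenchymal cells were at 0. The groups overlapped at the low end, since 30 Dorsal and 39 Ventral cells also had no Mrc1 count.

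Csf1r, the growth factor receptor (chr18:61100598-61132149, plus strand), had 242 CPM (240 to 245) in the Dorsal pool. The Ventral pool had 148 CPM (146 to 150). Its cell medians were 2.98 and 3.12 CPM, and its highest cells 5220 and 2636 CPM. Unlike C1qb and Mrc1 it was read in a share of the HSC cells, with at least 1 count in 28 of 65 (43.1%, exact binomial limits 30.8 to 56). The HSC pool stood at 12.4 CPM (11.7 to 13.2), and HSC 14 alone held 48.2% of these counts, at 287 CPM. Without HSC 14 the pool stood at 6.59 CPM. HSC 14 had 0 counts of C1qb and Mrc1, 282 CPM of Kit, the stem cell factor receptor, and 325 CPM of Procr, which encodes EPCR. In Mesenchymal, 13 of 88 cells had at least 1 Csf1r count, and the highest cell had 37 CPM.

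Fcer1g, the Fc receptor gamma chain, was found at low levels in most cells of 3 pools. The Dorsal pool had 145 CPM (143 to 147), the Ventral pool 111 CPM (109 to 112), with 50.7 CPM (49.2 to 52.3) in HSC and 0.133 CPM (0.06 to 0.249) in Mesenchymal. The cell medians were 5.21, 19.9, 8.71 and 0 CPM, so the Ventral cells had the highest median and Dorsal the highest pool level. HSC 37 held 51.9% of the HSC counts, at 1580 CPM, and without it the pool stood at 24.8 CPM. HSC 37 had 1612 CPM of Tyrobp, 4957 CPM of the granule enzyme gene Mpo and 796 CPM of the mast cell protease gene Cpa3, and 0 counts of C1qb, Csf1r and Mrc1.

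Apoe, the lipid carrier, was read in every pool. The Dorsal pool had 864 CPM (859 to 870) and the Ventral pool 561 CPM (557 to 565), with 414 CPM (410 to 419) in HSC and 41.6 CPM (40.1 to 43.2) in Mesenchymal. By the cell median the order was another one, with 390 CPM for HSC cells, 50.4 for Dorsal, 41.6 for Ventral and 18 for Mesenchymal ones. All 65 HSC cells had at least 1 count, between 7.97 and 1579 CPM, and 62 of them at least 50 CPM. The Mesenchymal cells reached 291 CPM, and 31 of 88 were at 0.

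Laptm5 and Coro1a, the pan-leukocyte genes, were found throughout the HSC pool. Laptm5 had 338 CPM (334 to 342) in the HSC pool, 112 (110 to 114) in the Dorsal pool and 62.2 (60.7 to 63.7) in the Ventral pool. HSC cells had 1.65 to 1071 CPM, with a median of 273. Coro1a had 419 CPM (415 to 424) in the HSC pool, 66.4 (64.9 to 68) in the Dorsal pool and 53 (51.7 to 54.4) in the Ventral pool. HSC cells had 66 to 930 CPM of Coro1a, with a median of 380, and no HSC cell fell below 50 CPM. Both genes were at 0 in all 88 Mesenchymal cells.

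**Figure D1:**
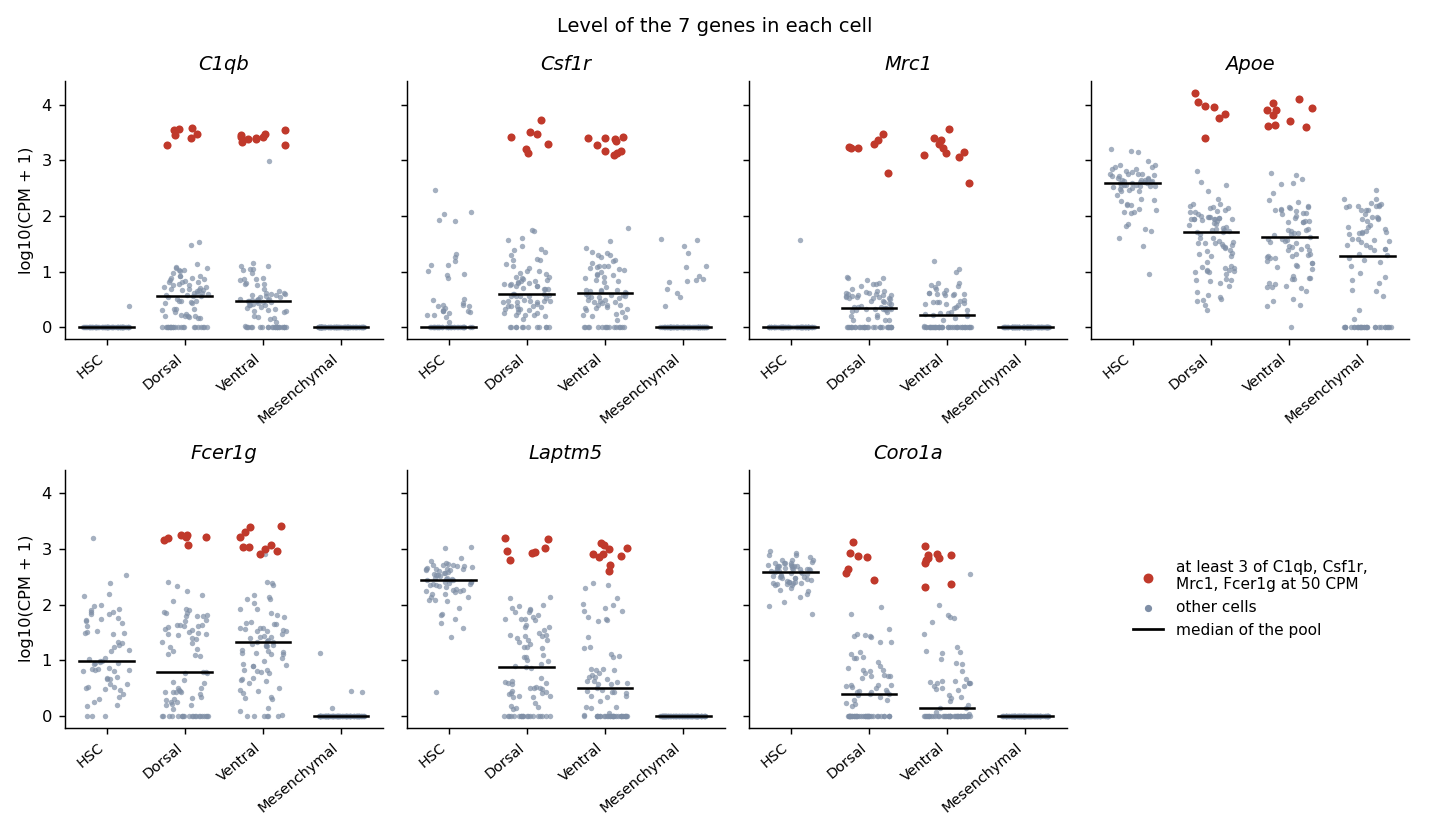
Level of each gene in each cell, as log10(CPM + 1), in the 4 pools; red points are the 17 cells with at least 3 of C1qb, Csf1r, Mrc1 and Fcer1g at 50 CPM, and the black line is the median of all cells of the pool. C1qb, Csf1r and Mrc1 reach 381 CPM or more in the red cells; among the others the highest are 1 Ventral cell with C1qb at 955 CPM and 1 HSC cell with Csf1r at 287 CPM, while Laptm5, Coro1a and Apoe are also high across the HSC cells.

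Fold values between pools were computed on log2(CPM + 1), with no test, for genes with at least 100 counts over both pools. They are descriptions, since these genes were chosen with such levels known. Ventral against Dorsal, 0 of the 7 genes were at least 2-fold higher, against 8.3% of 13152 genes, and 0 were at least 2-fold lower, against 10.1%. The log2 values ran from -0.83 for Laptm5 to -0.08 for Mrc1, with a median of -0.59 beside -0.14 over all genes. All 7 values were below 0, yet with every cell weighted equally all 7 were above 0, from 0.10 for Csf1r to 0.54 for Coro1a. The order of the 2 Ngfr+ pools was therefore not stable. Pool levels weigh cells by depth, and Ventral 41 held 18.5% of the Ventral counts. It had 0.87 counts of C1qb and 0 of Csf1r and Mrc1. In the cells with even i7 indices 6 of the 7 values were also above 0, with Apoe at 1.39. Without the 17 cells in which these genes were highest, Apoe had 1.25 and Laptm5 -1.03, and the other 5 lay between -0.43 and 0.19. The even i7 cells and the pools without the 17 cells both keep Ventral 41. Outside the 17 cells it held 9551 of the 14641 Ventral Apoe counts, so these Apoe values rest largely on that cell.

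Single cells moved the pool levels. Ventral 21 held 55.2% of the Ventral Mrc1 counts, and without it Mrc1 stood at 67.6 CPM. C1qb in Ventral stood at 111 CPM without Ventral 21, Csf1r at 85.2 CPM and Coro1a at 31.3 CPM. Dorsal 36 held 41.1% of the Dorsal Apoe counts and 44.4% of the Coro1a counts. Without it these genes stood at 521 and 37.8 CPM in Dorsal. Without both cells the log2 value of Csf1r, Ventral against Dorsal, was -1.03, and the other 6 lay between -0.84 and -0.26.

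Ventral against Mesenchymal, all 7 genes passed the 2-fold line with the higher level in Ventral, against 17.1% of 13065 genes, and 0 were lower, against 12.9%. C1qb was at least 3996-fold higher, set against a floor of 3 counts over the Mesenchymal pool, and Mrc1 at least 3327-fold. For Laptm5 the bound was at least 1421-fold higher and for Coro1a at least 1212-fold. Csf1r was 95.7-fold higher (79.1 to 117), Fcer1g 842-fold (443 to 1841) and Apoe 13.5-fold (13 to 14). Without Ventral 21 the value was 55.2-fold for Csf1r, and the bounds were at least 2541-fold for C1qb, 1544-fold for Mrc1 and 715-fold for Coro1a. The Mesenchymal level of Fcer1g rests on few counts, and without Mesenchymal 23 the fold was 1655. Without the 17 high cells 6 of the 7 still passed that line, and Mrc1 had a log2 value of 0.72. Those cells were chosen by high C1qb, Csf1r, Mrc1 and Fcer1g, so leaving them out lowers the Ventral levels of these genes. No share over all genes was computed for that setting.

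HSC against Ventral, 2 of the 7 genes were at least 2-fold higher in HSC, against 14.1% of 13104 genes, and 4 were lower, against 24.5%. Coro1a was 7.90-fold higher in HSC (7.69 to 8.13) and Laptm5 5.44-fold (5.30 to 5.59). C1qb was 14428-fold lower in HSC by the ratio of CPM (2589 to 569899, from under 1 count), Mrc1 308-fold (225 to 433), Csf1r 11.9-fold (11.2 to 12.7) and Fcer1g 2.18-fold (2.10 to 2.26). The difference for Apoe was under 2-fold, at 1.35-fold lower in HSC. Single cells decide some of these values. Without HSC 14, Csf1r was 22.5-fold lower in HSC, and without Ventral 21 it was 6.85-fold lower. Fcer1g was 4.46-fold lower without HSC 37, and 1.595-fold lower, so under the 2-fold line, without Ventral 21. Without Ventral 21, Mrc1 was 142-fold lower in HSC, C1qb 9462-fold lower and Coro1a 13.4-fold higher. The HSC counts of C1qb and Mrc1 came from HSC 30 and HSC 60 alone. Without the 17 high cells 5 genes were at least 2-fold higher in HSC and 1 lower: the log2 values of Csf1r and Fcer1g changed sign, to 1.17 and 1.6, and that of Apoe rose to 1.53. Those cells were chosen by high C1qb, Csf1r, Mrc1 and Fcer1g, so the sign changes are largely fixed by that choice. No share over all genes was computed for this setting.

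HSC against Mesenchymal, 5 of the 5 genes with enough counts were at least 2-fold higher in HSC, against 16.6% of 12758 genes, and 0 were lower, against 22.6%. C1qb and Mrc1 did not reach 100 counts over these pools. Coro1a was at least 9579-fold higher and Laptm5 at least 7732-fold. Fcer1g was 386-fold higher (203 to 846), Apoe 9.95-fold (9.58 to 10.3) and Csf1r 8.05-fold (6.59 to 9.93). Without HSC 37, Fcer1g was 187-fold higher, and without Mesenchymal 23 759.6-fold. Without HSC 14, Csf1r was 4.26-fold higher.

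The high values of the Ngfr+ pools came from 17 cells. Cells were called high where at least 3 of C1qb, Csf1r, Mrc1 and Fcer1g had 50 CPM or more. These were 7 of 93 Dorsal cells, 10 of 89 Ventral cells and none of the 65 HSC or 88 Mesenchymal cells. They held 8.06% of the Dorsal and 7.32% of the Ventral counts. Their median total was 908830 counts in Dorsal, against 1041978 in the other cells, and 476031 in Ventral, against 591996.

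Inside these cells every one of the 7 genes was present at a high level. C1qb had 1862 to 3800 CPM in the Dorsal high cells and 1900 to 3491 in the Ventral ones. The other Dorsal cells had at most 33.4 CPM of C1qb, so the 2 sets of cells did not overlap, as the choice of cells largely fixes. Csf1r had 1356 to 5220 and 1218 to 2636 CPM, and Mrc1 595 to 3012 and 381 to 3693 CPM. Fcer1g had 1159 to 1768 and 803 to 2620 CPM.

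The remaining genes were not used to choose the cells but are from the same cells. Apoe had 2494 to 16256 CPM in the Dorsal high cells and 3963 to 12588 in the Ventral ones. Laptm5 had 632 to 1585 and 403 to 1270 CPM. Coro1a had 278 to 1349 and 203 to 1142 CPM. Among the other Dorsal and Ventral cells the highest values were 636 CPM of Apoe, 244 CPM of Laptm5 and 351 CPM of Coro1a, each below the lowest high cell of its gene except for Coro1a. The high cells varied among themselves least for C1qb, with a coefficient of variation of 17.1% in Ventral and 22.8% in Dorsal, and for Fcer1g in Dorsal (13.3%). Mrc1 varied most in Ventral (51.8%), where the highest cell had 9.69 times the CPM of the lowest.

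**Figure D2:**
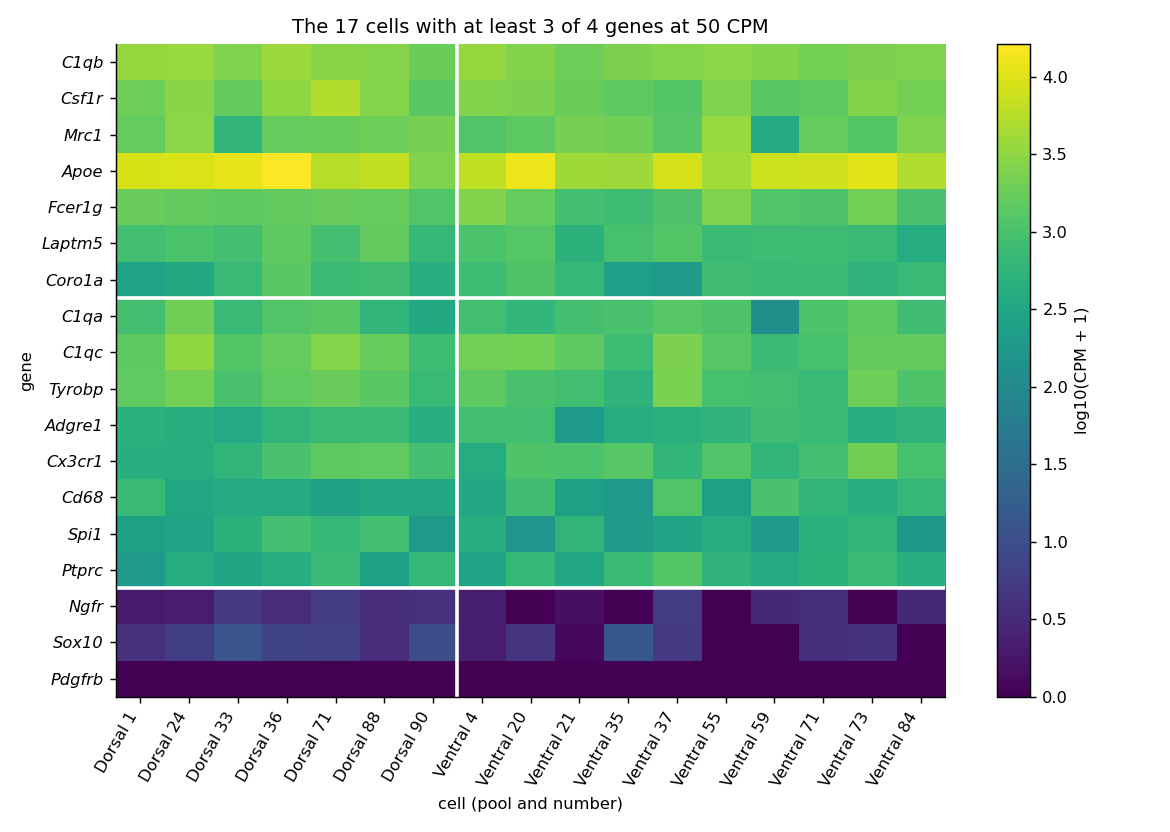
Levels, as log10(CPM + 1) by colour, of the 7 genes (top block), of other macrophage or leukocyte genes (middle block) and of the sorting and neural crest genes (bottom block) in the 17 high cells, 7 Dorsal and 10 Ventral. All 17 columns are bright in the upper blocks, with C1qb at 1862 CPM or more, and dark in the bottom block, with Ngfr at 4.43 CPM or less.

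Ventral 34 lies just outside the rule and is the nearest cell to it. It had 955 CPM of C1qb and 824 CPM of Fcer1g, but 33.7 CPM of Csf1r and 14.48 CPM of Mrc1, from a total of only 223660 counts. Ptprc was at 0 in it, C1qa at 269 CPM and Tyrobp at 431 CPM. No high cell lay near the cut-off of 50 CPM. The lowest values of the genes of the rule in high cells were 381 CPM of Mrc1 in Ventral 59 and 595 CPM in Dorsal 33.

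Most of the counts of each gene in the Ngfr+ pools lay in the high cells. For C1qb, Csf1r, Mrc1 and Fcer1g the choice of cells largely fixes this, and nothing is read from it. The share was 99.1% of Dorsal and 98.3% of Ventral counts for C1qb, 99.3% and 99.6% for Mrc1, and 98.1% and 96.9% for Csf1r. It was 92.2% and 93.1% for Coro1a, 93.7% and 76.4% for Apoe, 88.3% and 86.6% for Fcer1g, and 80.9% and 83.8% for Laptm5. Over all genes with at least 100 counts, the median share was 4.72% in Dorsal and 4.31% in Ventral, and 2.03% and 1.81% of genes had 90% or more there. In Ventral the deepest cell, number 41, was no high cell but had 9551 counts of Apoe, at 466 CPM, beside 0.87 counts of C1qb.

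The high cells were checked against the macrophage marker list and against the sorting gates. Of 9 macrophage markers in the table that did not choose the cells, 8 had a median of at least 50 CPM in the high cells of either pool, and Cd14 did not. Their summed level was 4157 to 10722 CPM in the Dorsal and 4775 to 9638 CPM in the Ventral high cells. In the other cells it was 0 to 127 CPM and 0 to 2164 CPM, the last from Ventral 34. Ptprc, the CD45 gene, had 179 to 691 CPM in the Dorsal and 290 to 1221 CPM in the Ventral high cells, and at most 27.6 CPM in the others.

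The gene of the sorting marker was low in these cells. Ngfr had 1.03 to 4.43 CPM in the Dorsal high cells, where the other cells had a median of 272, and 0 to 4.30 CPM in the Ventral ones, where the others had a median of 34.3. Sox10, a neural crest factor, had at most 13.5 CPM in the high cells, and Pdgfrb was at 0 in all 17. Procr, the gene of EPCR, was also at 0 in all 17, while Runx1, a blood transcription factor, had 20 to 470 CPM. Of the 5 granulocyte and mast cell markers in the table, none had a count in the Ventral high cells and 1, Prtn3, had any in the Dorsal ones. These cells thus met the macrophage list, and the label of their gate was not matched by their Ngfr RNA; whether the surface protein was present was not tested.

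Other genes of the same pathways followed the 7 genes to different degrees. The lists also hold some of the 7 themselves, and the counts below include them. C1qb, Mrc1 and Fcer1g are in the complement list, Csf1r in the CSF1 receptor list and Fcer1g in the Fc receptor list. For these genes the choice of cells largely fixes the share in the high cells. Apoe is in the lipid list, and Laptm5 and Coro1a are in the pan-leukocyte list. Of 16 complement and phagocytic receptor genes in the table, 12 of the 15 with at least 100 counts had 90% or more of their Dorsal counts in the high cells, and 12 of 16 in Ventral. C1qc, the partner chain, had 99.0% and 98.9% there, with medians of 1635 and 1530 CPM in the high cells. Stab1, a scavenger receptor, and Axl, a receptor for dying cells, had less (82.8% and 81.4%, and 19.3% and 23.4%), and like other genes of this section not named by level they were picked after their values were seen. Ventral against Mesenchymal, 13 of the 16 were at least 2-fold higher, against 17.1% of all genes, and 1 lower, against 12.9%. HSC against Ventral, 1 was higher, against 14.1%, and 12 lower, against 24.5%, with a median log2 value of -2.31.

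The CSF1 receptor and transcription factor list was mixed. Of 14 genes, 8 in Dorsal and 5 in Ventral had 90% or more of their counts in the high cells. Spi1, which encodes PU.1, had 98.3% and 98.5%. Its level was 257 CPM in the HSC pool, 46.9 in the Dorsal pool, 32.8 in the Ventral pool and 0 in the Mesenchymal pool. Maf, a macrophage transcription factor, had 94.3% and 79.1%, and also stood at 18.9 CPM in Mesenchymal. HSC against Ventral, 5 were at least 2-fold higher, against 14.1% of all genes, and 5 lower, against 24.5%. Csf1, the ligand of the receptor, stood between 0.974 and 4.07 CPM in the 4 pools, and 0% of its Dorsal and 2.12% of its Ventral counts lay in the high cells; it too was picked after its values were seen.

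Some lysosome genes had a large part of their counts in the other cells. Ctsb, a cathepsin, had 56.7% of Dorsal and 67.7% of Ventral counts in the high cells, Ctsd 51.1% and 53.7%, and Lgmn 51.8% and 47.4%. Lamp1, a membrane protein of all lysosomes, had 21.9% and 20.2%. By level Ctsb was still higher in the high cells, with medians of 4745 CPM against 284 in Dorsal and 5207 against 257 in Ventral. Ctss, also a cathepsin, had 98.7% and 97.3% of its counts in the high cells, and Cd68 of the same list 88.3% and 93.9%. Of the 12 genes of the surface and lysosome list, 6 reached 90% in either pool. In the lipid list Apoe was the sole gene of 9 with 90% or more in Dorsal, and none reached it in Ventral. Plin2, a lipid droplet protein, had 25.2% and 49.2%, and Abca1, a cholesterol exporter, 76.8% and 78.9%.

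Most pan-leukocyte genes had nearly all their Ngfr+ counts in the high cells and a higher level in HSC. Of the 19 with at least 100 counts, 15 in Dorsal and 16 in Ventral had 90% or more in the high cells, among them Arhgdib (98.4% and 94.1%), and Ptprc (96.3% and 98.1%). HSC against Ventral, 15 of 20 were at least 2-fold higher, against 14.1% of all genes, and none lower, against 24.5%, with a median log2 value of 1.73. Of the chemokines and cytokines, 4 of 9 were at least 2-fold higher in Ventral than in Dorsal, against 8.3% of all genes, and none lower, against 10.1%. Without Ventral 21 and Ventral 4, a setting chosen after the values were seen, none was higher and 4 were lower. With Ventral 21 alone left out, 2 were higher and none lower, and with Ventral 4 alone left out, 2 were higher and 2 lower. Ventral 21 alone held 85.2% of the Ventral counts of Il1b, an inflammatory cytokine, 85% of those of Ccl3, a chemokine, and 61.8% of those of Tnf, while Ventral 4 held 62.9% of those of Ccl4. Ccl9, another chemokine, stood at 140 CPM in HSC, where 29 cells had 50 CPM or more. In the Fc receptor and DAP12 list, Ptpn6, a phosphatase, had 73% and 63.4%, Inpp5d 98.1% and 86.1%, and Plcg2 43.7% and 82.9%. All 10 of that list were at least 2-fold higher in HSC than in Mesenchymal, against 16.6% of all genes.

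The number of the 7 genes found was also counted cell by cell. Cells were thinned to 310000 counts each, which left out 1 HSC, 1 Dorsal, 9 Ventral and 19 Mesenchymal cells, and a gene counted as found at 5 counts. All 7 genes were found in 7 of 92 Dorsal and 8 of 80 Ventral cells, and in no HSC or Mesenchymal cell. No Dorsal or Ventral cell had 5 or 6. Without thinning 17 cells had all 7. In HSC, 30 of 64 cells had 3 of the genes and 27 had 4, and Apoe and Coro1a were found in 64 of 64 and Laptm5 in 63. In Mesenchymal, 33 of 69 cells had none and no cell more than 2.

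Rank correlation across all 335 cells was highest within 2 groups of the genes, C1qb with Mrc1 and Laptm5 with Coro1a. These values are descriptions, since cells share pools, depth and indices. The median Spearman rho of the 21 pairs was 0.52. Laptm5 and Coro1a had 0.75, C1qb and Mrc1 0.73, and C1qb and Csf1r 0.53, while C1qb with Coro1a had 0.13 and C1qb with Apoe 0.12. Without the 17 high cells C1qb and Mrc1 still had 0.66, and Laptm5 and Coro1a 0.71. Among HSC cells alone the median was 0.08, with 0.46 for Laptm5 and Coro1a.

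The genes most like each of the 7 were drawn from 13041 genes with at least 5 counts in at least 10 cells. For C1qb they were C1qc (0.75), Mrc1, Ctss, C1qa and Fcrls. For Mrc1 they were C1qb, C1qc, Fcrls, Ctss and Mt1 (0.64). For Csf1r they were Fcrls (0.53), Mrc1, C1qb, Fcer1g and Ctss. Fcer1g had Tyrobp (0.70), Mt1, Laptm5, Rac2 and Gmfg. Laptm5 had Spi1 (0.77), Cyth4, Coro1a, Dok2 and Inpp5d. Coro1a had Hhex in 2 entries of the table (0.75 each), Spi1, Laptm5 and Lyl1. Apoe had Lgals9 (0.62), Fermt3, Fmnl1, Cyth4 and Inpp5d.

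The low counts of C1qb, Mrc1 and Csf1r in the other Ngfr+ wells went with the indices of the high cells. Most genes concentrated in the high cells showed the same direction, as counted below. The first comparison took, for each gene and pool with a top cell of at least 1000 counts, the wells sharing the i7 or the i5 index of that cell against the others. The share of wells with at least 1 count was at least 2-fold higher among sharing wells for 2 of 18 gene and pool pairs, against 2.16% of 10576 over all genes. A share above 50% among the other wells leaves no room for such a difference, so only 5 of the 18 pairs could have met the rule, as could 1011 pairs over all genes, of which 22.6% met it. These were C1qb in Ventral, with 14 of 17 sharing wells (82.4%, exact limits 56.6 to 96.2) against 26 of 71 (36.6%, 25.5 to 48.9), and Mrc1 in Ventral, with 12 of 17 against 24 of 71. The median count was at least 2-fold higher in 11 of the 18, against 17.6% over all genes, and higher at all in 16.

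C1qb in Dorsal missed that rule, with 17 of 18 sharing wells against 35 of 74, and median counts of 5.84 and 0.948. Csf1r in Dorsal had medians of 9.23 and 2.18, and Fcer1g 41.6 and 2.81. Since each of the 2 pools held several high cells, many of the wells compared as not sharing did share an index with another high cell. In Dorsal 58 of the 86 other wells shared an index with at least 1 high cell and 28 shared none. In Ventral 76 of 79 shared one and only 3 did not.

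The wells were therefore counted by the number of high cells with which they share an index, a comparison added after the data were seen. In Dorsal, C1qb had at least 1 count in 1 of 28 wells sharing with none, 11 of 18 sharing with 1, 25 of 31 sharing with 2 and 9 of 9 sharing with 3 or more. The median counts were 0, 1.80, 4.43 and 6.28. The median totals of these wells were 1384916, 1039677, 948378 and 1010624 counts, so the wells with no shared index were the deepest. With any count above 0 the Dorsal shares were 10 of 28, 14 of 18, 30 of 31 and 9 of 9. In Ventral the shares with at least 1 count were 0 of 3, 3 of 20, 11 of 32 and 17 of 24. Many Ventral estimates lie just under 1, with medians of 0.917, 0.921, 0.918 and 2.61 counts, and with any count above 0 the shares were 2 of 3, 13 of 20, 20 of 32 and 21 of 24. The order over the lower 3 sets in Ventral thus depends on the count required. Genes concentrated in the high cells, as set out with the index ratios below, give a background that includes C1qb, Mrc1 and Csf1r. The share of wells with at least 1 count was higher in sharing wells for 104 of 127 such genes in Dorsal. In Ventral it was higher for 111 of 138, with only 3 wells sharing none. The direction is thus common among such genes.

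Mrc1 and Csf1r in Dorsal were also lowest in the wells sharing with none. Mrc1 in Dorsal had at least 1 count in 7 of 28, 10 of 18, 24 of 31 and 7 of 9 wells. Csf1r in Dorsal had median counts of 1.09, 4.32, 4.06 and 9.24, so wells sharing no index also held it, up to 33 counts. In Ventral the Csf1r medians were 0, 1.07, 1.54 and 2.90. Across the 86 Dorsal wells the counts of C1qb had a Spearman rho of 0.79 with the summed counts of the high cells sharing an index, and of -0.09 with the well's own total. The wells share their sources, so this is a description. For C1qc the value was 0.82, for Tyrobp 0.71, for Mrc1 0.54 and for Csf1r 0.52, and for Laptm5 0.11. Fcer1g had 0.70, Coro1a 0.30 and Apoe 0.25. Across the 79 Ventral wells the values were lower for the first 5 of these genes: 0.42 for C1qb, 0.25 for C1qc, 0.43 for Tyrobp, 0.51 for Mrc1 and 0.39 for Csf1r. Laptm5 had 0.11 there too, Fcer1g 0.45, Coro1a 0.10 and Apoe 0.003.

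**Figure D3:**
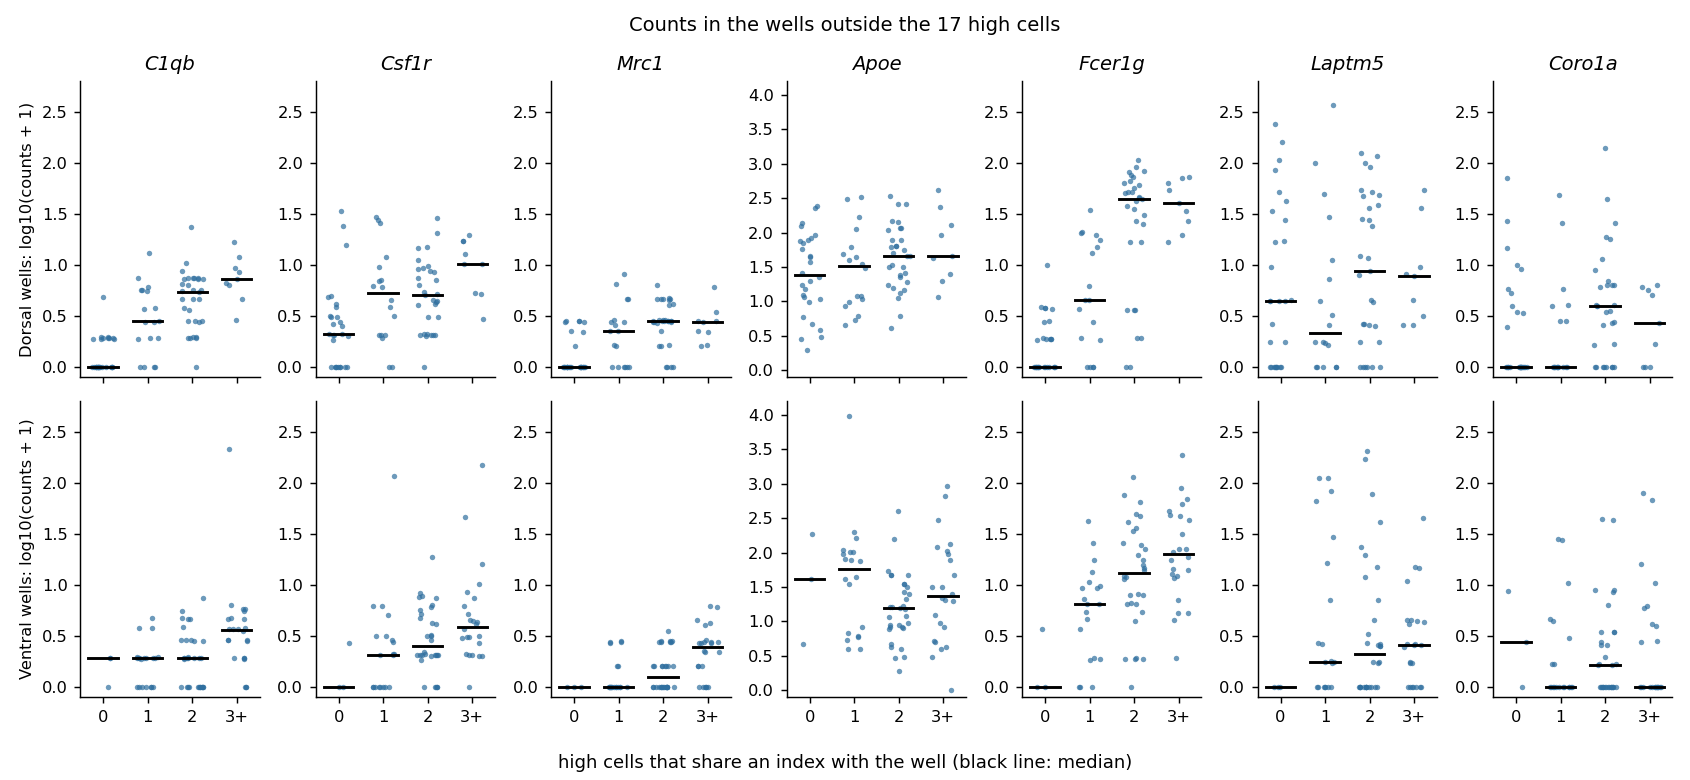
Counts of each gene, as log10(counts + 1), in the wells outside the 17 high cells, by the number of high cells (0, 1, 2, 3 or more) sharing an i7 or i5 index with the well; the upper row is Dorsal, the lower Ventral, and black lines are medians. In Dorsal the medians of C1qb rise at each step, from 0 to 6.28 counts, and so do those of Apoe, from 23.4 to 45.1. Those of Csf1r, Mrc1, Fcer1g, Laptm5 and Coro1a do not rise at each step. In Ventral, where only 3 wells share with none, those of C1qb stay near 0.92 before 2.61 and those of Laptm5 rise from 0 to 1.59.

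For Laptm5 and Coro1a in Dorsal the medians had no steady order over these sets of wells, and for Apoe a shallow one. Laptm5 in Dorsal had median counts of 3.43, 1.19, 7.68 and 6.84, and the highest well sharing with none had 241 counts. Coro1a in Dorsal had medians of 0, 0, 2.92 and 1.71, although 16 of the 18 wells sharing an index with its top cell had at least 1 count, against 34 of 74 others. Apoe was found in 27 of 28 Dorsal wells that shared no index with a high cell, with a median of 23.4 counts, and the medians with 1, 2 and 3 or more shared high cells were 31.8, 44.7 and 45.1. In Ventral the Laptm5 medians rose at each step, at 0, 0.766, 1.14 and 1.59 counts, while those of Coro1a were 1.78, 0, 0.639 and 0, and those of Apoe 40, 58.6, 14.49 and 22.3. Ventral 63 had 221 CPM of Laptm5 and 55.6 CPM of Coro1a beside 423 CPM of Sox10 and 0 counts of Ptprc.

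Fcer1g counts outside the high cells went with the i5 index and hardly with the i7 index. In Dorsal, 28 wells shared only the i5 index with a high cell, and all 28 had at least 1 Fcer1g count, with a median of 44.5. The 18 wells that shared only the i7 index had a median of 0.926 counts, and the 28 that shared neither a median of 0. In Ventral the medians were 16.5 counts in 25 wells sharing i5 only, 0.851 in 8 sharing i7 only and 0 in the 3 sharing neither. The i5 and i7 values are thus far apart in both pools.

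Row by row the Fcer1g counts went with the i5 index. The Dorsal rows with 1 or 2 high cells were S502, S503, S505 and S517, where the other wells had medians of 70.2, 18.7, 51.4 and 42 counts. Within row S502 the lowest well had 49.6 counts. The Dorsal rows without a high cell, S504, S506, S507 and S508, had medians of 0.44, 0, 0 and 2.63 counts. In Ventral only row S507 had no high cell, and its median was 0.82, while the other rows had medians of 3.53 to 52.03. The row medians did not follow the counts of the high cells in order: Ventral row S508 had 52.03 beside 1523 high-cell counts and row S517 had 14.9 beside 3792.

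**Figure D4:**
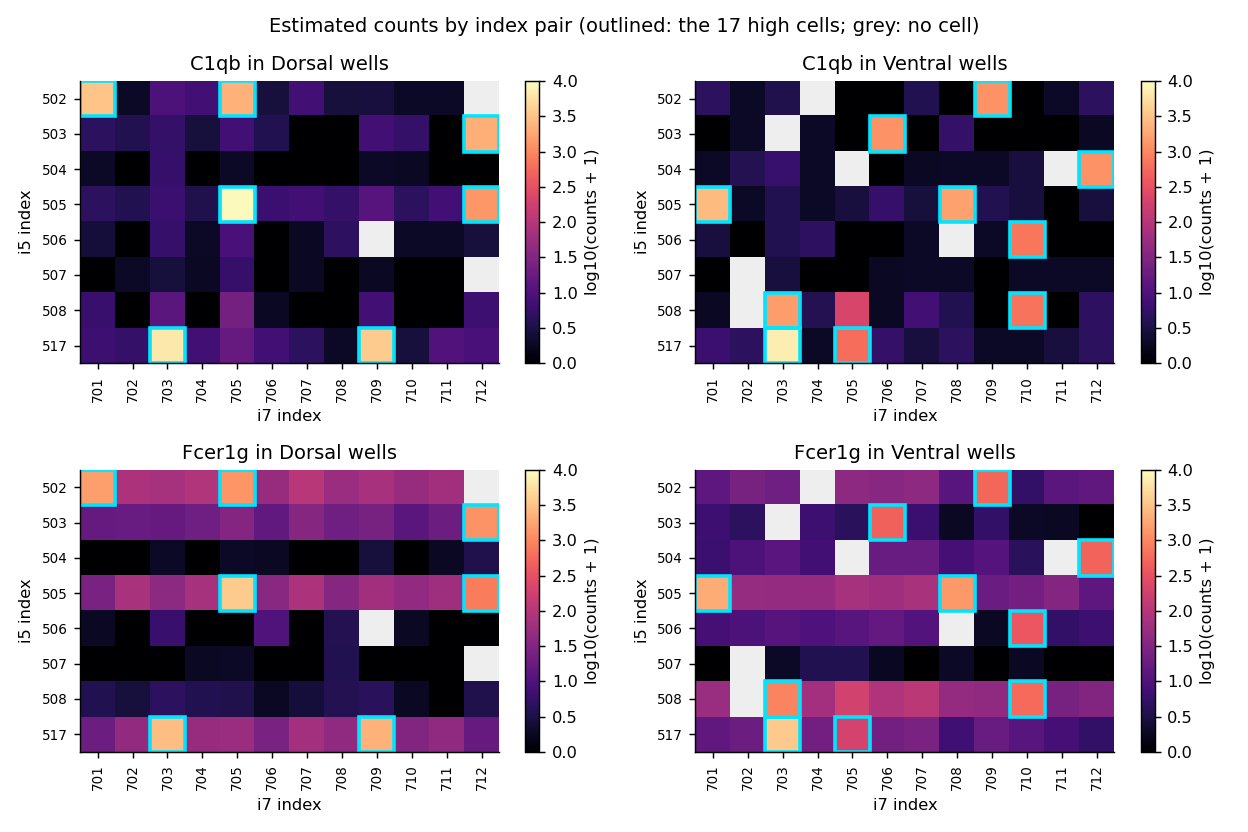
Estimated counts of C1qb (top) and Fcer1g (bottom), as log10(counts + 1) by colour, at each pair of i7 index (columns) and i5 index (rows) in the Dorsal (left) and Ventral (right) pools; outlined squares are the 17 high cells and pale grey squares hold no cell. In Dorsal, Fcer1g fills the rows that contain a high cell, such as S502 with a median of 70.2 counts, and faint C1qb counts lie along both the rows and the columns of high cells. In Ventral, row S503 holds a high cell but has a median of 3.53 Fcer1g counts and wells at 0.

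Counts were then set against those of the high cells concerned, which were taken again for each sharing well. Each percent is thus a share per well, not of all such wells together. Fcer1g in wells sharing i5 only came to 1.37% in Dorsal and 1.58% in Ventral. Together these 28 Dorsal wells held 1331 of the 15714 Fcer1g counts of their pool, and the 25 Ventral wells 630 of 12222. In wells sharing i7 only Fcer1g came to 0.0553% and 0.0591%. For C1qb the values were 0.0484% (i5) and 0.0777% (i7) in Dorsal, and 0.0518% and 0.0291% in Ventral. For Mrc1 they were 0.0409% and 0.0639% in Dorsal, and 0.0301% and 0.0411% in Ventral.

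The ratio of i5 to i7 was set beside other genes with at least 80% of their pool's counts, and at least 1000 counts, in the high cells. Of 127 such genes in Dorsal the median ratio was 0.937, and Fcer1g had 24.8, the third highest after Ikzf1 and Gas6, which were named after their values were seen. Of 138 such genes in Ventral the median was 1.53 and Fcer1g had 26.8, at rank 27, where the 8 wells sharing i7 only give few counts. Tyrobp, whose levels were most like those of Fcer1g, had Dorsal row medians of at most 4 counts. The cause of the Fcer1g pattern was not tested.

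**Figure D5:**
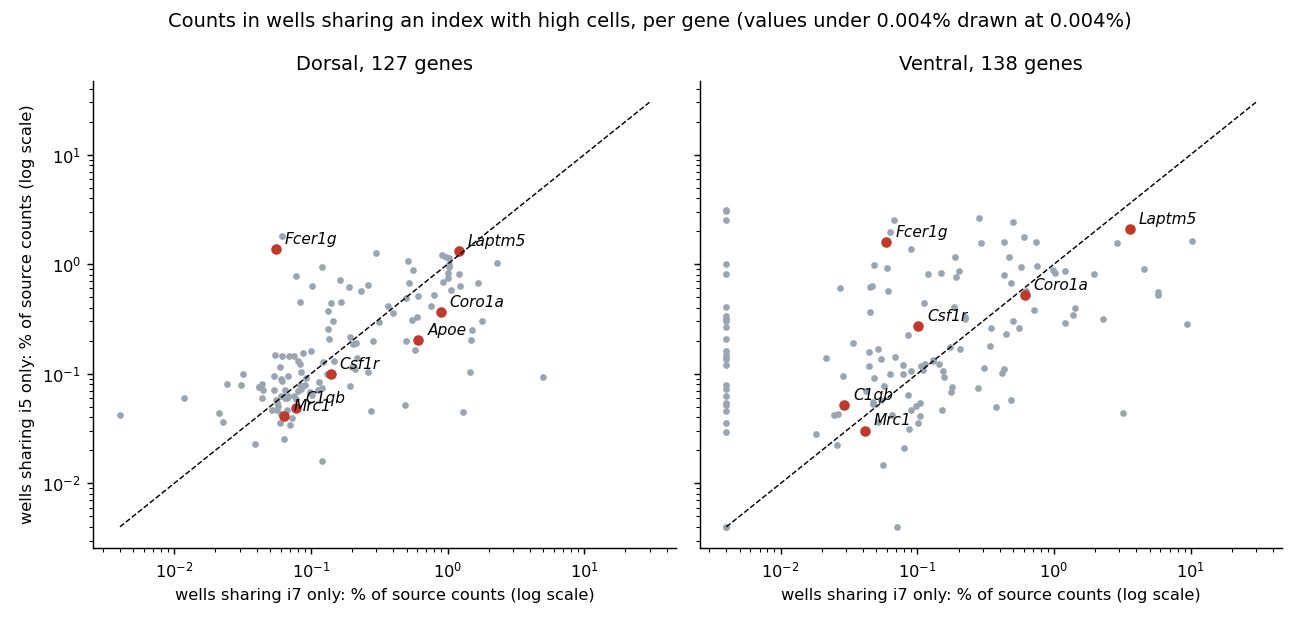
Counts in wells sharing only the i5 index (vertical, log scale) and only the i7 index (horizontal, log scale) with high cells, for genes with at least 80% of their pool's counts in the high cells. They are drawn as a percent of the counts of those high cells, which are taken again for each sharing well, so the percent is per well. Red points are the genes of this group, the dashed line is equality, and values of 0 are drawn at the edge. Fcer1g lies far above the line in both pools, at 1.37% against 0.0553% in Dorsal; Apoe in Ventral did not reach 80% and is not drawn.

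The HSC pool held no high cell, but HSC 37 was far above the rest for Fcer1g, with 2173 counts. The 7 wells that share its i5 index had 19.1 to 88 counts of Fcer1g, with a median of 26.6. The 6 that share its i7 index had a median of 23.3, and the other 51 wells one of 5.36, with up to 256 counts. The medians for i5 and i7 were close here, unlike in Dorsal and Ventral, and the difference was not tested. Tyrobp, with 2217 counts in the same cell, had medians of 20.1, 42.6 and 16.4 counts in the same 3 sets of wells.

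Index pairs are used again in other pools, so wells of the HSC and Mesenchymal pools with the index pair of a high cell were examined too. C1qb had 0 counts in all 10 such HSC wells and all 15 such Mesenchymal wells. Mrc1 was at 0 in the 15 Mesenchymal wells and in 9 of the 10 HSC wells. The exception is HSC 60, the sole HSC cell with Mrc1 counts, which has the index pair of Dorsal 88. HSC 60 held 39.2 counts of Mrc1 and 119 of Csf1r, the second highest Csf1r count of its pool, and 0 of C1qb, of which Dorsal 88 had 2180 counts. Mesenchymal 38, the well of its pool with the most Csf1r (30.4 counts), has the index pair of Ventral 35, and Mesenchymal 23, with the most Fcer1g (4.55 counts), that of Dorsal 24 and Ventral 21. Over the 10 HSC wells the median of Fcer1g was 2.86 counts, where the pool median was 7.01. The part of shared index pairs in these single wells was not tested.

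Leaving out the wells that share an index with a gene's top cell moved none of the 7 genes across the 2-fold line between Ventral and Dorsal. With the top cell left out as well, Csf1r alone crossed it, at a log2 value of -1.05. Outside the high cells, C1qb summed to 2.71 CPM in Dorsal and 3.23 CPM in Ventral, and Mrc1 to 1.21 and 0.643 CPM. Csf1r summed to 5.14 and 4.99 CPM, Fcer1g to 18.4 and 16.02 CPM, and Coro1a to 5.63 and 3.94 CPM. Laptm5 summed to 23.2 and 10.9 CPM, and Apoe to 59.7 and 143 CPM, the last with 9551 of 14641 counts in Ventral 41. The part of shared indices in these low levels was not tested.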

How the data were processed

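Single-cell Smart-seq2 libraries were quantified with kallisto 0.43.1 on GRCm38, per the submitters' processing notes. The deposited count table holds the authors' estimated counts per gene, and a second deposited table holds log2 normalized counts; annotation, summing to genes, filters and size factors are not given in the sources used here. Of 14109 entries, 661 without a symbol (2.96% of counts) were left out. The members and the gene lists, thresholds and tests were chosen with earlier results of these data known. Named genes are the 7 members, the 2 to 4 genes per list with the highest CPM in any pool, and the 5 genes most like each member; other genes were named after their values were seen. Counts were summed per pool, divided by the pool's total as CPM, and compared as log2(CPM + 1), with no test. Limits are 95% exact Poisson or Clopper-Pearson limits. Cells were thinned at random without replacement to 310000 counts. Fold and index rules were run on simulated data, with 1 source cell per gene for the index rule and counting error alone for folds. These runs did not cover several sources in a pool or the spread between cells. Gene positions are from GENCODE on GRCm38. Alternatives were other pseudocounts, no filter, cells weighted equally, the deposited log2 table, cells by odd or even i7 index, and pools without the deepest, the high or the index-sharing cells. No doublet caller was run. Python 3.11.15, numpy 2.4.6, pandas 2.3.3, scipy 1.17.1 and matplotlib 3.10.9 were used.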

Additional observations from a re-analysis of the deposited data

How the results depend on the processing

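The number of the 7 genes at least 2-fold higher in Ventral than in Dorsal was 0 and became 1 in the even i7 cells and 1 without the 17 high cells. In both settings that gene was Apoe, and both keep Ventral 41, with 9551 of the 14641 Ventral Apoe counts outside the high cells. HSC against Ventral the number of genes was 2 and became 5 without the high cells, where the log2 values of Csf1r (1.17) and Fcer1g (1.6) reversed. The high cells were chosen by Csf1r and Fcer1g among others, which largely fixes these reversals. The number of gene and pool pairs past the index rule was 2 of 18, 5 with at least 5 counts in place of 1, 0 in thinned cells and 0 with any count above 0. The settings without the high cells and with any count above 0 were chosen after seeing the data. The causes of the changes in Apoe and in the index rule were not tested. The other 59 alternatives, over these counts, the number of high cells (17, and 20 at 20 CPM), the cells with all 7 genes (15, and 21 at 1 count) and the median rho (0.52, and 0.42 thinned), stayed within 1.5 times of the reported value. At 20 CPM the rule also took HSC 60, so the absence of high cells in HSC depends on the cut-off. HSC 60 had 108 CPM of Csf1r, 35.8 CPM of Mrc1 and 36.3 Fcer1g counts in a total of 1094702. No paired analysis was possible because each group is 1 pool and the cell numbers only name cells. Depth limits the low counts: Mesenchymal zeros allow up to 0.0438 CPM.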

Other observations

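The proliferation gene Mki67 varied within the high cells; it, Lyve1 and Cdh5 were chosen after their values were seen. It had a median of 4.25 CPM in the 7 Dorsal high cells, with 1 cell at 0 and the highest at 912 CPM. In the 10 Ventral high cells the median was 201 CPM, again with 1 cell at 0, and the highest had 905 CPM. The other cells had medians of 1.34 CPM in Dorsal and 13.1 CPM in Ventral. Lyve1, a hyaluronan receptor of some tissue macrophages and of lymphatic endothelium, had counts in 2 of the 7 Dorsal and 3 of the 10 Ventral high cells, up to 183 CPM. Cdh5, the endothelial cadherin gene, was at 0 in 5 of the 7 Dorsal high cells and stood at 388 CPM in Dorsal 33. Il1b had 1262 CPM in Ventral 21 and 1001 CPM in Ventral 4, and at most 111 CPM in the 7 Dorsal high cells.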
